A study of Mus musculus with 8 samples.

Results

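The 36 genes described here encode subunits of the receptors for glutamate and for γ-aminobutyric acid (GABA), and they were taken by symbol from the 33696 genes counted in nuclei of the mouse optic nerve (ON). The list holds 4 AMPA, 5 kainate and 7 NMDA receptor genes, 1 delta receptor gene, 7 metabotropic glutamate receptor genes, 10 genes of the GABA-A receptor and 2 of the GABA-B receptor. All 36 symbols were found in the counts. The counts came from single-nucleus RNA sequencing (snRNA-seq) of ONs of female mice aged 120 days, in 4 control libraries (replicates 1 to 4) and 4 libraries labelled as conditional knockout (cKO, replicates 10 to 13). Each library pooled 6 ONs of 3 mice. Control mice carried loxP-flanked *Piezo2* alleles (Piezo2f/f) without cre, and the other group carried the same alleles together with *Olig2*-cre, a knock-in of cre into the *Olig2* gene that is active in cells of the oligodendrocyte (OL) lineage and in other cells that descend from *Olig2*-expressing progenitors. The study states that the cre mice are heterozygous for *Olig2* and cites earlier work in which this left myelination unaffected. The genotype comparisons cannot tell the loss of *Piezo2* apart from that of an *Olig2* copy. The comparisons ask in which cell types of the nerve the receptor genes were expressed, how they differed along the OL lineage from OL precursor cells (OPCs) over committed OPCs to OLs, and whether they differed between the genotypes.

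Glutamate and GABA are the main excitatory and inhibitory transmitters of the brain. AMPA, kainate and NMDA receptors are ion channels that glutamate opens, and the GABA-A receptor is a chloride channel that GABA opens, each built from several subunits. Metabotropic glutamate receptors and the GABA-B receptor signal through G proteins. The ON holds the axons of retinal ganglion cells, whose cell bodies lie in the retina, and OPCs, OLs and astrocytes of white matter are known to respond to both transmitters.

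In the data below *Gria2* was higher at the early stages of the OL lineage and *Grm3* in OLs. A promoter stretch of each of these 2 genes is shown. Each is the 250 bases before the first annotated base of the gene (GRCm39, GENCODE annotation, minus strand), 5′ to 3′, with matches to CAGNTG, the letters of an E-box, in capitals.

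Gria2 promoter, chr3:80710539-80710788: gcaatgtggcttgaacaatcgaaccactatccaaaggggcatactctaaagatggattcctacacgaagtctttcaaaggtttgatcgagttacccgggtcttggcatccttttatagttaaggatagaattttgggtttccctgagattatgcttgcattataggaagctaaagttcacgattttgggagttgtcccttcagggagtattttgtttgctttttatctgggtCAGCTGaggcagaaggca

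Grm3 promoter, chr5:9776089-9776338: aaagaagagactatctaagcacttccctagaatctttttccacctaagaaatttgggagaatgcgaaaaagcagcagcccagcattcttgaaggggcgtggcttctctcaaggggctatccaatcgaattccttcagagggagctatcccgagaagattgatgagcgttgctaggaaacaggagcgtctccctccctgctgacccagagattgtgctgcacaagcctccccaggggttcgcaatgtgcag

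The *Gria2* stretch held 1 match to CAGNTG and the *Grm3* stretch held none. Neither held ACAANG, the core letters of a SOX-type motif, on either strand. Over all 33184 such stretches in the annotation, 46% held CAGNTG and 38.4% held ACAANG. Of the 36 receptor genes, 10 (27.8%) held CAGNTG and 15 (41.7%) held ACAANG. A match describes letters in this window and says nothing of binding.

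After calling of nuclei, quality filters and doublet removal, 37221 nuclei remained, 3426 to 6232 per library with a median of 2383 to 3302 unique molecular identifiers (UMIs) per nucleus, and any pair of libraries shared 1 to 11 barcodes. Clusters were made without the receptor genes and named from marker lists, so each name stands for nuclei that resemble that type by markers (OL for OL-like). In the control libraries, 7988 nuclei were OLs, 41 committed OPCs, 314 OPCs, 3959 astrocytes, 1568 fibroblasts, 602 myeloid cells, 201 neurons, 117 endothelial cells, 80 T cells and 39 mural cells. Another 1836 control nuclei lay in clusters that were left unnamed. Control replicate 3 held 98 of the 201 control neurons and 91.2% of a cluster led by pituitary hormone genes, which was left unnamed. The study regards its own neuronal cluster as likely carried over from brain tissue next to the nerve. Whether the neurons counted here have that source was not tested. Over both groups of libraries, the neurons include a group of 68 nuclei led by *Pomc*, a pituitary marker. OLs had 390 to 506 CPM of *Piezo2*, the targeted gene, in the control libraries and 523 to 570 CPM in the others. Per the methods of the study the deletion takes out a few exons, while these counts sum over the whole gene, so this level does not check the deletion. The second group is called the libraries labelled cKO, since its genotype rests on the label. Levels are CPM, the counts of a gene scaled to a fixed library total, taken from the UMIs summed over the nuclei of a type in a library, and they are compared for 1 gene across cell types, never between genes. Barcodes of empty droplets gave the background of free RNA, whose estimated share of the sums had a median of 15.2% in OLs, 15.4% in OPCs and 16.2% in astrocytes.

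Receptor genes were spread unevenly over the cell types of the control nerves. OPCs carried the broadest set among the non-neuronal types, OLs 4 kainate and 3 metabotropic receptor genes with *Gria4*, *Grin2d* and *Gabbr1*, and astrocytes *Gria1*, 5 GABA-A and 4 kainate receptor genes with *Grin2d*, *Grin3a*, *Grid1* and *Grm7*. Myeloid cells held none by the same measure, and in T cells, with 80 control nuclei and 13125 to 35691 UMIs per library, no receptor gene reached the 20 UMIs it asks for. A gene was counted in a type when the type held at least 20 of its UMIs and its level was above that of empty droplets in each of the 4 control libraries. By this measure 30 receptor genes were found in neurons, 19 in OPCs, 14 in astrocytes, 10 in committed OPCs, 10 in OLs, 8 in fibroblasts, 2 in mural cells and 1, *Grm7*, in endothelial cells. *Grm7* measured 295 ± 146 CPM in endothelial cells (SD, n = 4) and 49.3 ± 33.5 CPM there with nuclei assigned by markers alone, and the endothelial sums carried mural markers at 591 to 1611 CPM, whose part in it was not tested. The highest type was sought among OLs, OPCs, astrocytes, endothelial cells, fibroblasts, myeloid cells and neurons, without the sparse committed OPCs, mural cells and T cells, and 30 genes reached 20 UMIs in their highest type. That type was neurons for 17 genes, OPCs for 8, OLs for 3 (*Grik1*, *Grm3* and *Gabbr1*), astrocytes for *Gria1* and fibroblasts for *Grin2d*. It was the same in all 4 control libraries for 22 of the 30 genes, among them 12 of the 17 of neurons. *Gabrb1* was highest in neurons in 1 of the 4 libraries. Without neurons, 27 genes reached this count, and OPCs were highest for 16 of them, astrocytes for 6, OLs for 3 and fibroblasts for 2. The same non-neuronal type was highest in all 4 control libraries for 19 of these 27 genes. With neurons included, *Grin2c*, *Grin3b*, *Grm2*, *Gabra6* and *Gabrd* stayed under 20 UMIs in their highest type, and *Grm6* had no UMI in any named type of the control libraries. *Grin2c* had 21 UMIs in astrocytes, its highest type without neurons. Since the clusters were made from the same nuclei, this map is a description without a test.

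**Figure D1:**
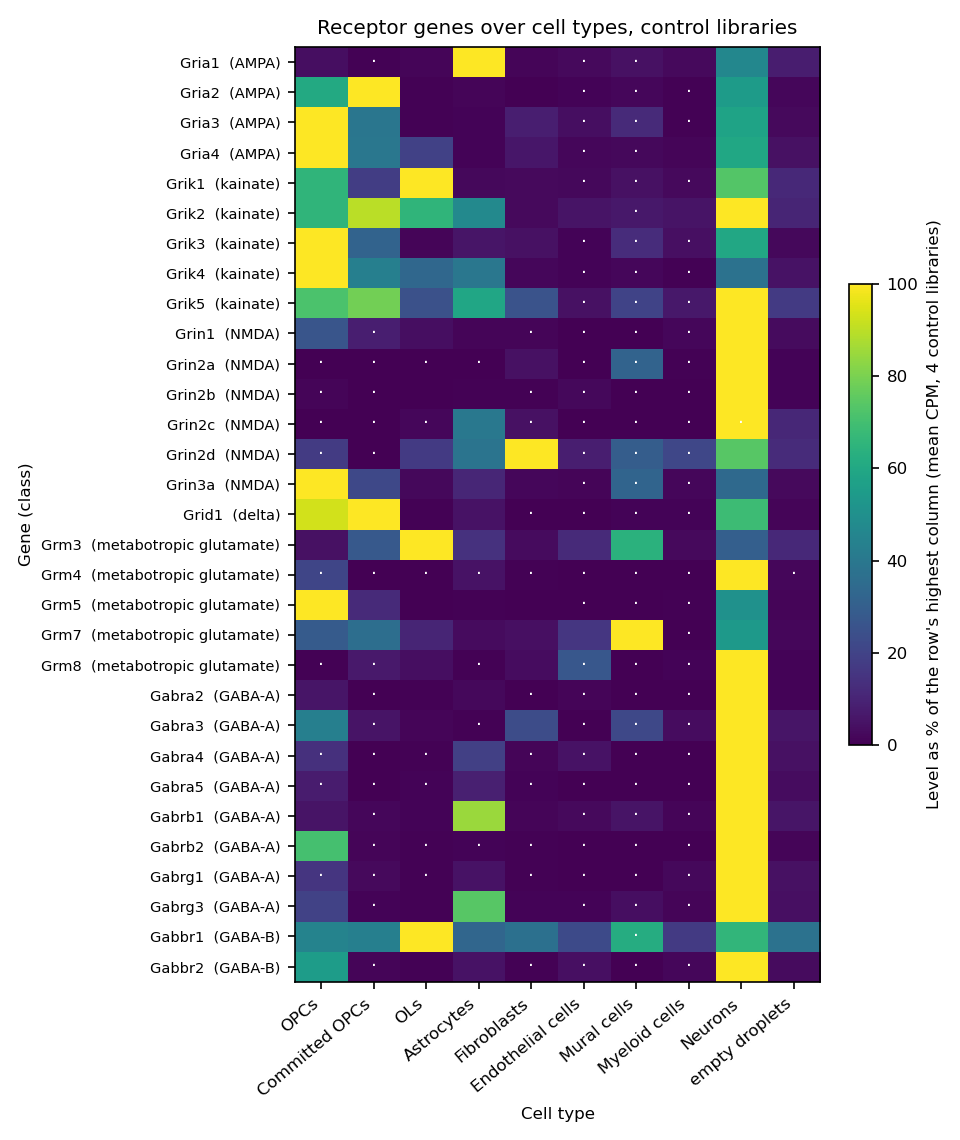
Mean level of each receptor gene by cell type in the 4 control libraries, as a percentage of the highest column of its row (colour), for the genes with at least 20 UMIs in some type. White dots mark entries with fewer than 20 UMIs, and the mean of committed OPCs and mural cells includes libraries with fewer than 10 nuclei. OPCs, neurons, OLs (*Grik1*, *Grm3*, *Gabbr1*) and astrocytes (*Gria1*, *Gabrb1*, *Gabrg3*) hold most of the bright entries.

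The AMPA receptor genes divided the glia between them. *Gria1* (chromosome 11, 56902153 to 57221080, plus strand) was the AMPA receptor gene of astrocytes, with 1455, 1133, 1405 and 1323 CPM in control replicates 1 to 4. Its astrocyte levels were above the neuronal levels, which lay between 455 and 785 CPM, in every library. In OLs *Gria1* measured 16.7 ± 3.49 CPM (SD, n = 4), below the 105 ± 11.8 CPM of empty droplets. A *Gria1* UMI was found in 86.3% ± 1.31 of astrocyte nuclei (SD, n = 4; median depth 3029 UMIs) and in 4.81% ± 1.33 of OL nuclei (median depth 2790 UMIs), or in 62.9% ± 4.60 and 1.76% ± 0.35 after thinning each nucleus to 1000 UMIs.

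*Gria2*, *Gria3* and *Gria4* were higher in OPCs than in the other glia, apart from the sparse committed OPCs, where *Gria2* measured 1716 ± 788 CPM (SD, n = 4). *Gria2* (chromosome 3, 80588757 to 80710538, minus strand), whose subunit sets the calcium permeability of AMPA receptors, measured 1180, 1070, 953 and 951 CPM in OPCs and 846 to 1072 CPM in neurons, so that these ranges overlapped. In OLs it measured 7.08 ± 2.06 CPM, against 32.1 ± 13.7 CPM in empty droplets. A *Gria2* UMI was present in 92.6% ± 2.74 of OPCs (SD, n = 4; median depth 3411 UMIs) and in 2.00% ± 0.62 of OLs. *Gria3* (X chromosome, 40489476 to 40767490) measured 445, 524, 531 and 461 CPM in OPCs and 2.54 ± 1.17 CPM in OLs. *Gria4* (chromosome 9, 4417604 to 4796326, minus strand) differed from these in that it was also present in OLs, at 305, 263, 316 and 320 CPM, below its 1526, 1291, 1703 and 1681 CPM in OPCs. In OLs it lay above the empty droplets, whose mean was 70.0 CPM.

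Each kainate receptor gene had its own arrangement over the glia. *Grik2* (chromosome 10, 48970929 to 49664880, minus strand) measured 821, 771, 802 and 690 CPM in OLs and 767, 811, 760 and 749 CPM in OPCs, and these ranges overlapped. It measured 516, 531, 642 and 522 CPM in astrocytes, lower than in OLs in every library. Counts of *Grik2* are uncertain, since 2 other counted genes overlap it on the same strand. *Grik1* (chromosome 16, 87692788 to 88087153, minus strand) had its highest glial level in OLs, with 595, 575, 484 and 504 CPM. Its OPC levels, 292 to 457 CPM, lay below the OL range, while those of neurons, 205 to 614 CPM, overlapped it. *Grik1* in astrocytes, at 12.0 ± 0.75 CPM (SD, n = 4), was below the empty droplets.

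*Grik4* and *Grik5* encode high-affinity subunits that form channels together with the products of *Grik1* to *Grik3*. *Grik4* measured 483, 397, 391 and 537 CPM in OPCs, while astrocytes (136 to 220 CPM) and OLs (125 to 169 CPM) overlapped at a lower level. *Grik3* measured 223, 260, 271 and 240 CPM in OPCs, 78.9 ± 31.9 CPM in committed OPCs, 13.9 ± 4.42 CPM in astrocytes and 3.56 ± 2.00 CPM in OLs (SD, n = 4). *Grik5* was low and broad, with a mean of 85.0 ± 14.1 CPM in OPCs, 70.3 ± 4.29 CPM in astrocytes and 29.4 ± 2.95 CPM in OLs (SD, n = 4).

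NMDA receptor genes were low in glia, with the exception of *Grin3a* in OPCs. *Grin3a* (chromosome 4, 49661611 to 49845847, minus strand) encodes a subunit that lowers calcium entry, and it measured 440, 335, 408 and 504 CPM in OPCs, above the 112 to 164 CPM of neurons. The small gene *Ppp3r2* lies within it on the same strand, so its counts are uncertain. *Grin1*, the subunit that all NMDA receptors need, measured 45.6, 39.7, 56.3 and 56.5 CPM in OPCs, 7.31 ± 2.43 CPM in OLs and 189 CPM on average in neurons. *Grin2a* and *Grin2b*, which carry the glutamate binding site, were genes of neurons, with means of 248 and 676 CPM there. In OPCs the same genes had means of 0.88 and 8.45 CPM, and *Grin2b* had 8 UMIs over all 314 control OPCs. Fibroblasts showed low levels of *Grin2d* (24.7, 29.6, 21.6 and 30.6 CPM) and of *Grin2a* (10.8, 22.5, 5.85 and 3.74 CPM). Both lay above the empty droplets in each library.

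*Grid1*, which encodes a delta receptor that acts as an adhesion molecule at synapses, was restricted within the lineage to its early stages, with a mean of 656 CPM in OPCs and 605, 815, 812 and 583 CPM in committed OPCs. OLs held 3.32 ± 0.62 CPM (SD, n = 4), below the empty droplets at 8.34 CPM. Committed OPCs numbered only 5 in each of control replicates 2 and 4.

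Among the metabotropic genes, *Grm3* and *Grm5* had opposite arrangements in OPCs and OLs. *Grm3* (chromosome 5, 9534069 to 9776088, minus strand), a group II receptor that lowers cAMP, measured 1001, 922, 989 and 862 CPM in OLs. In OPCs it measured 44.2 ± 5.21 CPM, below the 107 ± 9.73 CPM of empty droplets, and in astrocytes 134 ± 32.2 CPM. A *Grm3* UMI was found in 79.1% ± 2.50 of OLs and in 11.1% ± 2.72 of OPCs (SD, n = 4), which were sequenced to the higher median depth. *Grm5* (chromosome 7, 87233376 to 87784594, plus strand), a group I receptor that raises intracellular calcium, had its highest level in OPCs. It measured 1126, 1295, 1143 and 1177 CPM in OPCs, 601 CPM on average in neurons and 3.03 CPM in OLs.

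*Grm7* (chromosome 6, 110622542 to 111544191, plus strand), a group III receptor with low affinity for glutamate, was found in most types. Its levels were 542, 441, 595 and 570 CPM in OPCs and 187, 109, 302 and 178 CPM in OLs, where replicate 3 was highest. Astrocytes held 56.0 ± 6.75 CPM. In mural cells, the contractile cells of the vessel wall, *Grm7* measured 3090, 2899, 411 and 1073 CPM from 7, 12, 15 and 5 nuclei, and the 4 libraries labelled cKO gave a mean of 1966 ± 1021 CPM from 31 mural nuclei. Mural cells also held *Grm3*, at 602 ± 484 CPM in control libraries and 910 ± 452 CPM in the libraries labelled cKO (SD, n = 4). The few nuclei and the wide spread allow no order between mural cells and neurons. *Grm8*, also of group III, was low in OLs with 7.34 ± 2.60 CPM, above the empty droplets in each control library, and *Grm4* reached 20 UMIs in neurons alone (26.2 CPM).

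GABA-A receptor genes split between astrocytes, OPCs and neurons. In astrocytes *Gabrb1* (chromosome 5, 71815456 to 72319431, plus strand) measured 730, 732, 832 and 662 CPM and *Gabrg3* (chromosome 7, 56366213 to 57036936, minus strand) measured 696, 504, 623 and 672 CPM. Neuronal ranges were 419 to 1641 CPM for *Gabrb1* and 592 to 1142 CPM for *Gabrg3*, and both overlapped those of astrocytes. In OLs neither gene exceeded 10 CPM in any control library, against 49.4 CPM (*Gabrb1*) and 33.1 CPM (*Gabrg3*) in empty droplets. A *Gabrb1* UMI was present in 65.2% ± 3.31 of astrocytes and in 2.17% ± 0.63 of OLs (SD, n = 4).

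Some of these subunits were also found in OPCs, among them *Gabrg3* and *Gabra2*, which measured 17.5 ± 14.1 CPM there (SD, n = 4), above the empty droplets in each control library. *Gabrb2* measured 51.0, 101, 127 and 132 CPM in OPCs, within reach of the 63.8 to 182 CPM of neurons, and 0.59 CPM in OLs. *Gabra3* measured 59.0, 13.2, 70.4 and 47.1 CPM in OPCs and 25.4 ± 7.09 CPM in fibroblasts. *Gabrg3* reached 166 ± 56.6 CPM in OPCs, also above the empty droplets in each library. The alpha subunits *Gabra2*, *Gabra4* and *Gabra5*, which form the GABA binding site with a beta subunit, were low in astrocytes. *Gabra2* measured 3.41, 2.29, 19.6 and 2.50 CPM there, so that its mean of 6.95 CPM rests on control replicate 3. *Gabra4* and *Gabra5* had means of 8.52 and 3.08 CPM in astrocytes, and neurons had means of 315, 44.8 and 34.5 CPM for the 3 genes. *Gabrg1*, *Gabra2*, *Gabra4* and *Gabrb1* lie side by side within 1.41 Mb of chromosome 5.

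The 2 subunits of the GABA-B receptor, which is formed by both, were found together in OPCs and not in OLs. *Gabbr1* measured 247, 269, 230 and 231 CPM in OLs and 109 ± 6.46 CPM in OPCs. *Gabbr2* measured 99.2, 88.1, 63.3 and 108 CPM in OPCs and 1.21 CPM in OLs, below the 4.59 CPM of empty droplets. Neurons held both genes, at 161 and 162 CPM.

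The tests of differences along the OL lineage used edgeR's quasi-likelihood test on the sums of the control libraries, with the library as a block, and called a gene at an adjusted p (Benjamini-Hochberg, over all genes tested) under 0.05 where the log2 fold change also exceeded 0.5 in size. The p-values rest on a spread between libraries that edgeR estimates with information shared over genes. The smallest therefore do not measure the spread of a gene on its own. Without the block, the adjusted p between OPCs and OLs was 3.20e-17 for *Grin3a* and 1.52e-15 for *Grm3*. Cell types were defined on the same nuclei from other genes, and many genes were called between them. The share called over all genes is therefore given beside each count. Between OPCs and OLs, 25 receptor genes could be tested, of which 19 were higher and 4 lower in OPCs. The background over all 12919 genes tested was 21.5% called higher, 18.7% called lower and 40.2% in either direction. The median log2 fold change was 2.77 over the receptor genes and -0.06 over all genes.

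All 4 AMPA receptor genes, all 6 GABA-A receptor genes tested, *Grid1*, *Gabbr2*, 3 kainate, 2 NMDA and 2 metabotropic receptor genes were called higher in OPCs. The log2 fold change was 8.61 ± 0.14 for *Grm5* (SE), 7.61 ± 0.15 for *Grid1*, 7.59 ± 0.17 for *Gria3*, 7.20 ± 0.12 for *Gria2*, 6.17 ± 0.22 for *Grik3* and 2.35 ± 0.08 for *Gria4*, and 5.58 ± 0.15 for *Grin3a* (adjusted p = 4.95e-286). In OLs these genes other than *Gria4* had means below that of empty droplets. *Gria1* and *Gabrb1*, also called higher in OPCs, had OPC means of 49.8 and 47.2 CPM, below the 105 and 49.4 CPM of empty droplets. Called lower in OPCs were *Grm3* (-4.43 ± 0.15, adjusted p = 2.40e-178), *Gabbr1* (-1.19 ± 0.14), *Grik1* (-0.64 ± 0.10, adjusted p = 2.79e-09) and *Grm8*. *Grik2* (-0.01 ± 0.09) and *Grin2d* were not called. *Grm8*, with 2 UMIs in all control OPCs, was not called by DESeq2, without the block, after thinning or ambient subtraction, or without control replicate 2, 3 or 4. *Gabrg1*, *Gabra2*, *Gabrb1*, *Gabra3* and *Gria1* were not called after thinning to 1000 UMIs, *Gabra2* not after ambient subtraction and *Gabrg1* not without control replicate 2. *Grik1* was lost when nuclei were assigned by markers alone.

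Auxiliary subunits, anchoring proteins, transporters and enzymes that act with these receptors were taken as a list of 61 genes. Of the 50 tested between OPCs and OLs, 33 were higher and 4 lower in OPCs, with a median log2 fold change of 2.42. Among them were *Cacng4*, a gene of AMPA receptor auxiliary subunits (7.96 ± 0.14), *Neto1*, which binds kainate receptors (8.54 ± 0.26), *Grip1*, which anchors AMPA receptors (6.89 ± 0.18), *Olfm2* (7.22 ± 0.22), *Adarb2* (7.26 ± 0.11) and the adhesion gene *Nlgn1* (3.81 ± 0.09). The direction is that of the AMPA receptor genes, and no link between the lists was tested.

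Committed OPCs, the intermediate stage marked by *Gpr17*, showed a partial set. They were tested in the 6 libraries with at least 10 such nuclei, which were 2 control libraries and 4 libraries labelled cKO, with the library as a block. Against OPCs, 17 receptor genes were tested, of which *Gria2* and *Grm3* were higher in committed OPCs and 10 were lower, where 16% and 20.6% of 4236 genes were called in these directions and 36.7% in either. *Gria2* reached 1945 CPM (median over the 6 libraries, range 1478 to 2816), which was 0.77 ± 0.14 above OPCs on the log2 scale (adjusted p = 1.99e-05). *Grm3*, with a range of 14.97 to 357 CPM, was 1.95 ± 0.32 above OPCs (adjusted p = 6.85e-06). In each of these 6 libraries *Gria2* in committed OPCs lay above the highest OPC level of the 8 libraries. With nuclei assigned by markers alone *Gria2* was not called, and in the control libraries it then measured 1119 ± 467 CPM in committed OPCs and 986 ± 129 CPM in OPCs (SD, n = 4), so this difference depends on how the few committed OPC nuclei were assigned. Committed OPCs assigned by markers alone also held 459 ± 181 CPM of *Gria1*, a gene high in astrocytes (SD, n = 4). With clusters, *Gria1* had a mean of 4.51 CPM in the 2 control libraries tested. Whether astrocyte nuclei were among those assigned by markers alone was not tested. *Grm3* could not be tested after ambient subtraction or after thinning.

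The genes called lower in committed OPCs than in OPCs came from each multi-gene class. *Grm5* had a log2 fold change of -3.61 ± 0.21 (adjusted p = 2.25e-15) and levels of 39.3 to 137 CPM. *Grin3a* (-1.78 ± 0.23), *Gria4* (-1.11 ± 0.14), *Gabbr2* (-3.83 ± 0.52), *Gabrg3* (-2.41 ± 0.36), *Grik1* (-1.61 ± 0.25), *Grik4* (-1.18 ± 0.19) and *Gabrb2* (-3.16 ± 0.50) followed, each with an adjusted p of 4.16e-06 or less, and *Gria3* and *Grik3* were the others. With nuclei assigned by markers alone, *Gabrg3* had the opposite sign and was not called (0.48 ± 0.29, adjusted p = 0.231), *Gabrb2* was not called either, and *Grm5* (-3.85 ± 0.20), *Gabbr2* (-3.75 ± 0.43) and *Grik1* (-3.20 ± 0.24) were called lower. Control committed OPCs assigned by markers alone held 273 ± 136 CPM of *Gabrg3* (SD, n = 4). With clusters, its mean was 18.3 CPM in the 2 control libraries tested. *Gabrg3* is also high in astrocytes, and whether astrocyte nuclei took part in this was not tested. After ambient subtraction *Gabrb2* could not be tested, and after thinning *Gabbr2*, *Grik3*, *Gabrg3* and *Gabrb2* could not. *Grik2*, *Grik5*, *Grid1*, *Gabbr1* and *Grm7* were not called. *Grid1*, with 539 to 1138 CPM, differed from OPCs by 0.20 ± 0.15.

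Against OLs, 20 receptor genes were tested, of which 11 were higher in committed OPCs (background 9.62% of 12410 genes) and 3 lower (background 16.3%, or 25.9% in either direction). The 3 lower genes were *Grik1* (-2.83 ± 0.21, adjusted p = 6.85e-38), *Grm3* (-2.53 ± 0.20, adjusted p = 4.88e-36) and *Gabbr1* (-1.67 ± 0.23, adjusted p = 1.05e-11). *Gria2* (8.17 ± 0.20), *Grid1* (8.12 ± 0.20), *Gria3* (6.69 ± 0.31), *Grik3* (4.99 ± 0.40), *Grm5* (4.96 ± 0.39) and *Grin3a* (3.50 ± 0.32) had the largest positive log2 fold changes among those called. *Grik1* was therefore lower in committed OPCs than in both its neighbours, and its level there was 0 to 162 CPM. *Grm3* was called higher than in OPCs and lower than in OLs, but its committed OPC levels differed between the labels, with 357 and 262 CPM in the 2 control libraries and 14.97 to 146 CPM in the libraries labelled cKO. In replicate 12 of these, with 10 nuclei, the order was the opposite, with 14.97 CPM in committed OPCs and 51.5 CPM in OPCs. *Grm7* ranged from 0 to 1388 CPM over these 6 libraries, and the control libraries had the 2 highest values. Of the other genes of the pathway, 4 were higher and 12 lower in committed OPCs than in OPCs of 26 tested, with *Cacng4* (-3.27 ± 0.23), *Slc1a2* (-4.22 ± 0.30) and *Olfm2* (-3.52 ± 0.32) among those lower. Against OLs, 15 were higher and 4 lower of 39 tested, among them *Slc1a1* (7.24 ± 0.20), a neuronal glutamate transporter.

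**Figure D2:**
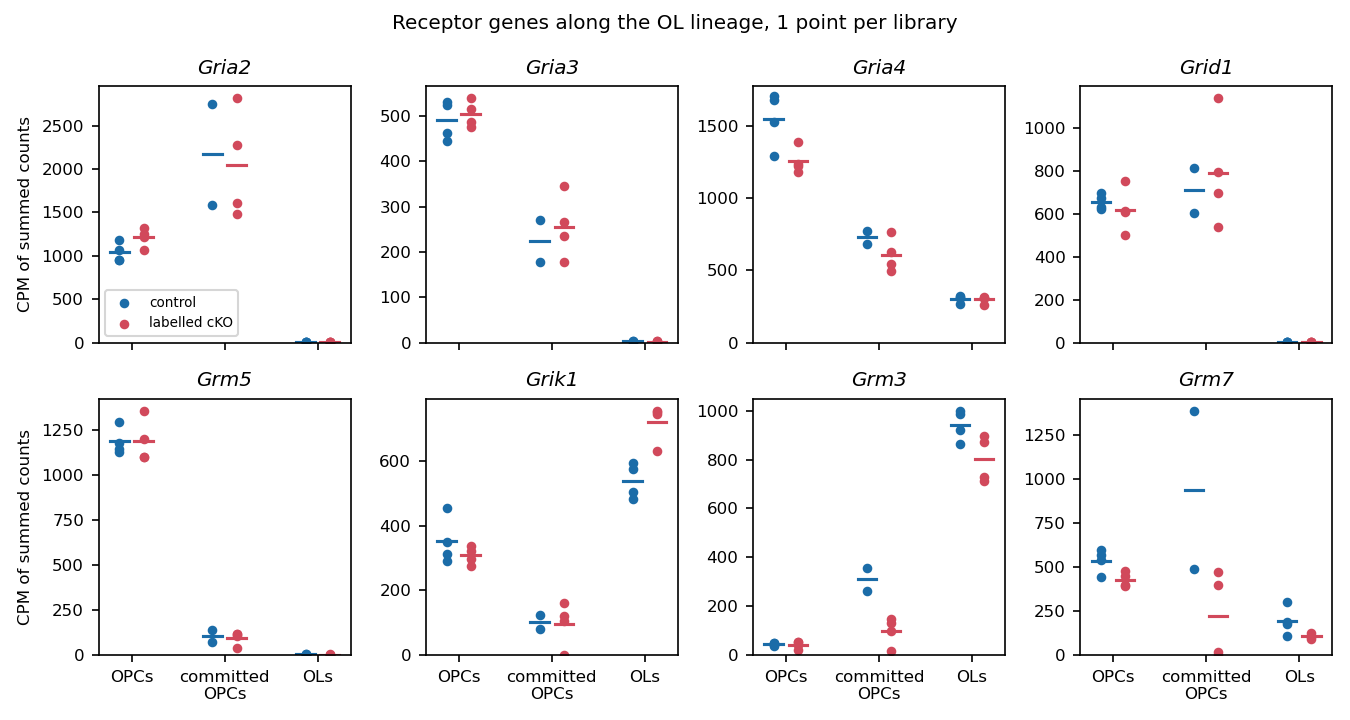
Levels of 8 receptor genes in OPCs, committed OPCs and OLs (CPM of summed counts), 1 point per library with at least 10 nuclei, control in blue and libraries labelled cKO in red, with a line at each mean. *Gria2* is highest in committed OPCs, *Gria3*, *Gria4* and *Grm5* in OPCs, and *Grm3* and *Grik1* in OLs, while *Grik1* is lowest in committed OPCs.

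Astrocytes and OLs, the most abundant glia of the nerve, divided the genes in another way. Of 23 receptor genes tested in the control libraries, 13 were higher in astrocytes (background 31.7% of 15017 genes) and 8 were lower (background 23.5%, or 55.2% in either direction), with a median log2 fold change of 1.00 against -0.00 over all genes. *Gabrg3* (6.38 ± 0.10, adjusted p = 1.39e-17), *Gabrb1* (6.34 ± 0.12, adjusted p = 3.17e-17) and *Gria1* (6.10 ± 0.13, adjusted p = 9.11e-17) were higher in astrocytes. *Grik1* (-5.74 ± 0.11, adjusted p = 2.23e-17), *Gria4* (-4.46 ± 0.13, adjusted p = 3.31e-15), *Grm3* (-3.08 ± 0.10, adjusted p = 8.49e-15), *Gabbr1* (-1.84 ± 0.08, adjusted p = 4.70e-13) and *Grm7* (-1.94 ± 0.11, adjusted p = 4.10e-11) were lower. *Grid1*, *Grin3a*, *Grik3*, *Grik5*, *Gria2*, *Gabra2*, *Gabra4*, *Grin2b*, *Grin2d* and *Grm5* were the other genes called higher, and *Grik2*, *Grin1* and *Grm8* the others called lower. *Grik4* (0.01 ± 0.07) and *Gria3* (0.53 ± 0.32) were not called. *Grin2b* and *Grm5* were not called by DESeq2 or without the block, and these 2 and *Gabra2* were not called after ambient subtraction, with markers alone, or without control replicate 1 or 3. Control replicate 3 held the highest astrocyte level of *Gria2*, *Gabra2*, *Grin2b* and *Grm5* and 90.1 CPM of the 6 neuron markers, against 17.6 to 27.2 CPM in the other control libraries, whose part in these calls was not tested. On average *Gria2*, *Grin2b* and *Grm5* were below the empty droplets in astrocytes. Among the genes of the pathway, 24 were higher and 10 lower of 46 tested, with *Shisa6* (6.97 ± 0.19), *Slc1a2* (4.33 ± 0.14), *Slc6a11* (4.18 ± 0.12), *Neto2* (3.33 ± 0.12) and *Slc1a3* (2.64 ± 0.08) higher and *Dlg2* (-3.27 ± 0.09) lower in astrocytes. *Slc1a2* and *Slc1a3* encode the glutamate transporters of astrocytes, and *Slc6a11* a GABA transporter.

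OLs were then ranked in each control library by the mean log level of *Trf*, *Apod* and *Klk6* minus that of *Mbp*, *Mog* and *Mal*, markers of OL subtypes that hold no receptor gene, and the upper and lower of 3 equal groups were compared with the library as a block. Of 15 receptor genes tested, 2 were lower in the upper group and none was higher, where 1.55% of 11380 genes were called lower, 2.24% higher and 3.79% in either direction. Without the block *Grm7* was not called (adjusted p = 0.131). The 2 genes were *Grm7* (-1.08 ± 0.07, adjusted p = 3.30e-17) and *Grm3* (-0.51 ± 0.04, adjusted p = 9.79e-14). Without control replicate 3, *Grm3* had -0.46 and fell short of the limit of 0.5, leaving 1 called gene. *Grik1* passed the adjusted p but not the limit (0.36 ± 0.05, adjusted p = 1.00e-07). Of 31 other genes of the pathway, only *Nlgn1* was called (-0.60 ± 0.06).

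OLs were not uniform in these genes. Over 7 subclusters, made without the receptor genes, *Grik1* ranged from 241 ± 38.8 CPM in subcluster 2, led by *Kit* and *Kirrel3*, to 931 ± 82.9 CPM in subcluster 0, led by *Dlc1* and *Tox* (SD, n = 4 control libraries). *Grm7* and *Grm3* had the opposite ends in the same subclusters, with 45.3 ± 17.5 and 476 ± 33.7 CPM in subcluster 0 and 311 ± 94.5 and 1215 ± 94.8 CPM in subcluster 2. *Grik2* also ran from 507 ± 72.6 CPM in subcluster 0 to 1130 ± 56.9 CPM in subcluster 2. The values of these subclusters did not overlap between libraries for any of these 4 genes. *Gabbr1*, *Grik4* and *Grik5* varied by less than 1.3-fold over the subclusters. The subclusters differed in depth, with a median of 2466 UMIs in subcluster 2 and 3157 UMIs in subcluster 0. Subcluster 5, with a median of 1443 UMIs and *Avp*, *Gh*, *Prl* and *Pomc* as its leading genes, was among the 7 and was at neither end for these 4 genes.

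Astrocytes varied more widely. *Gabrg3* ranged over 9 subclusters with at least 3 control libraries from 71.0 ± 20.4 CPM in subcluster 7, led by *Myoc*, to 1555 ± 193 CPM in subcluster 0 (SD, n = 4). *Gabrb1* ran the other way, from 392 ± 57.5 CPM in subcluster 0 to 1530 ± 87.3 CPM in subcluster 7. The ranges of these subclusters were again separate in all 4 libraries for both genes. Astrocyte subcluster 6, with a median of 911 UMIs, was led by the haemoglobin gene *Hbb-bs* and was at neither end for the pair. *Grik2* was lowest in subcluster 4 (218 ± 40.7 CPM), where *Gria1* was highest (1848 ± 251 CPM). *Grm7*, at 8.03 ± 1.90 CPM in subcluster 0, was above the empty droplets in subcluster 4 (138 ± 30.8 CPM).

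**Figure D3:**
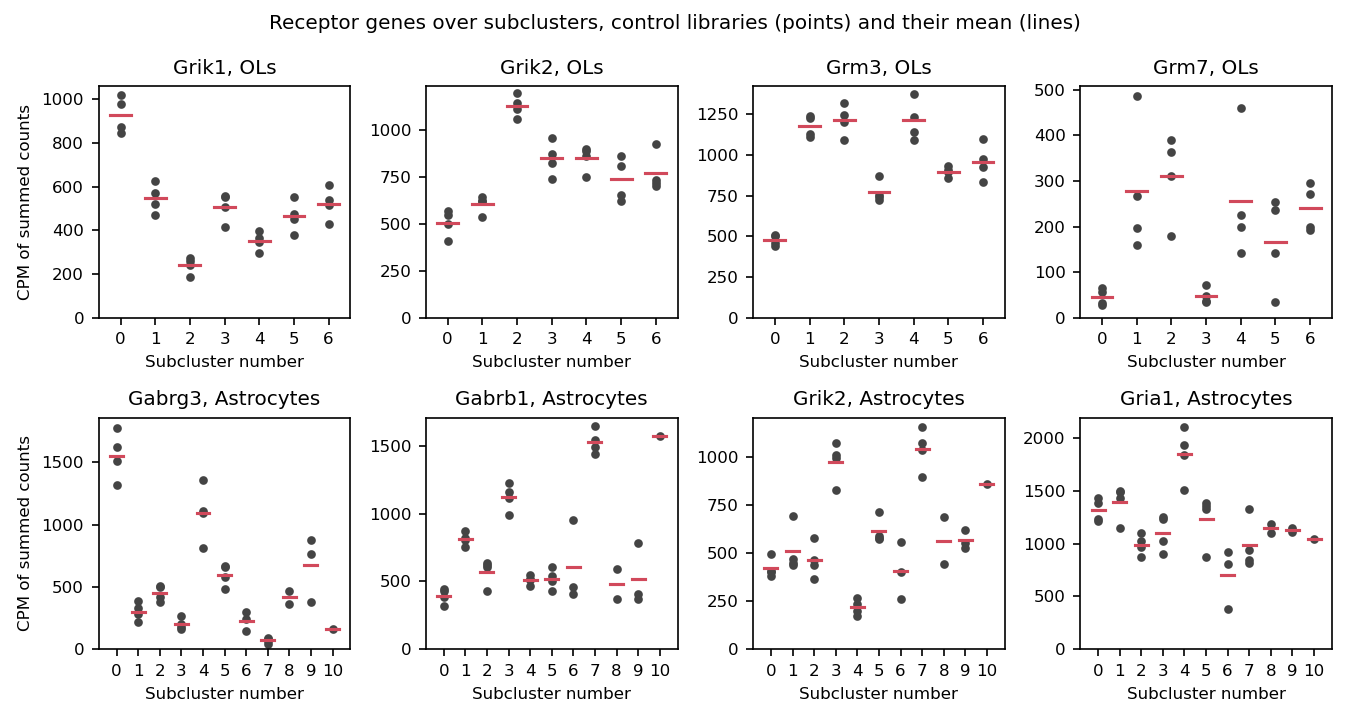
Levels of 4 receptor genes over the 7 subclusters of OLs (top) and of 4 over the 11 subclusters of astrocytes (bottom), in CPM of summed counts, 1 point per control library with at least 10 nuclei and a line at the mean. *Grik1* is highest in OL subcluster 0, where *Grik2*, *Grm3* and *Grm7* are lowest, and *Gabrg3* is highest in astrocyte subcluster 0, where *Gabrb1* is lowest.

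Between the genotypes, edgeR with its filter on low counts called no receptor gene in any of 7 cell types. In OLs 0 of 21 receptor genes were called, where 0.0829% of 14477 genes were (0.0276% higher and 0.0553% lower), and 6 had an unadjusted p under 0.05. In astrocytes the counts were 0 of 22 (background 0% of 14330 genes) with 5 at an unadjusted p under 0.05, in OPCs 0 of 21 (background 0.293% of 6136 genes, 0.0815% higher and 0.212% lower) with 5, in fibroblasts 0 of 15 (background 0% of 12383 genes) with 3 and in neurons 0 of 27 (background 0.0178% of 5625 genes) with 1. Only 1 receptor gene could be tested in myeloid cells and 2 in endothelial cells, where 0% of genes were called. The 1 in myeloid cells, *Gabbr1*, had 0.85 ± 0.26 with an unadjusted p of 0.0032 (adjusted p = 0.766). Neither in endothelial cells had an unadjusted p under 0.05. DESeq2 called 1 receptor gene, *Grm7* in astrocytes (-0.83 ± 0.20, adjusted p = 0.0303), among 9 genes of all those tested there, and none in the other types. Without the filter, edgeR called *Grm7* in OLs (adjusted p = 0.0281) and astrocytes (adjusted p = 0.0110), *Grik2* in myeloid cells and *Grm8* in endothelial cells. Of all genes it then called 42, 29, 22 and 12 in this order of types, against 12, 0, 0 and 0 with the filter. *Grm8* had 18 UMIs in control endothelial cells. Most receptor genes of the glia had a lower fitted level under the cKO label. A negative log2 fold change was found for 16 of 21 genes in OLs (median -0.19, over all genes 0.02), 19 of 22 in astrocytes (-0.20, over all genes 0.01) and 17 of 21 in OPCs (-0.19, over all genes 0.01), and for 12 of 27 in neurons (0.07). Without control replicate 3 the median was -0.12 in OLs and -0.13 in astrocytes, and after thinning to 1000 UMIs it was -0.09 in OLs, -0.06 in OPCs, where 9 of 14 genes were negative, and -0.25 in astrocytes, where 14 of 15 were. By DESeq2 the OL median was -0.29, and in fibroblasts 9 of 15 receptor genes were negative (median -0.10). Over all genes tested, 6674 of 14477 were negative in OLs, 6947 of 14330 in astrocytes, 3000 of 6136 in OPCs and 2774 of 5625 in neurons. Of the other pathway genes tested, 26 of 42 were negative in OLs, 28 of 44 in astrocytes, 24 of 36 in OPCs and 22 of 45 in neurons. The receptor genes share libraries, so the counts describe these libraries.

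**Figure D4:**
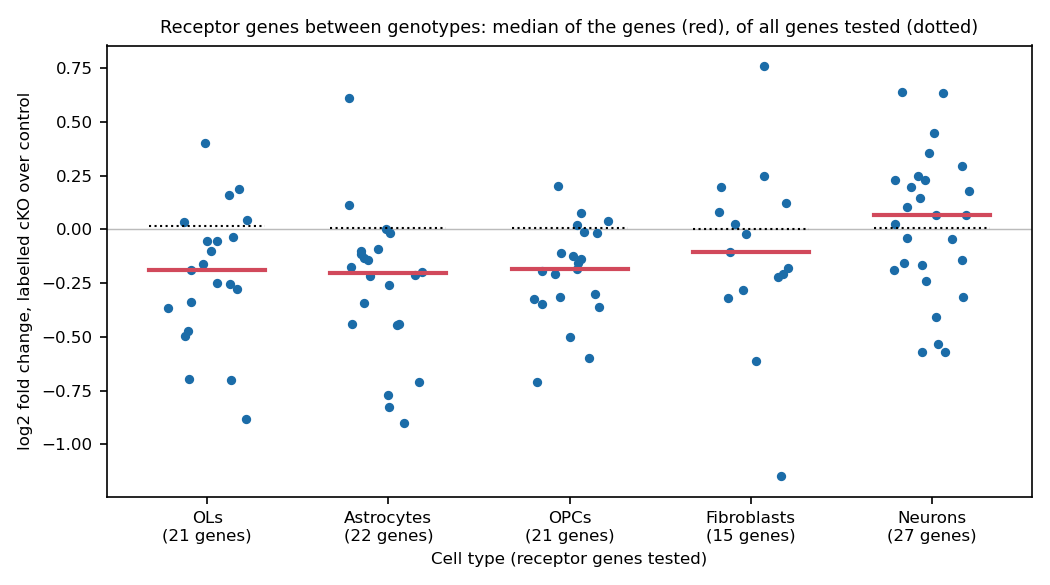
Log2 fold change of each receptor gene tested, libraries labelled cKO over control, in 5 cell types, 1 point per gene, with the median of the receptor genes in red and that of all genes tested as a dotted line. The medians of the receptor genes lie at -0.19 in OLs, -0.20 in astrocytes and -0.19 in OPCs, below those of all genes, and at 0.07 in neurons.

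*Grm7*, *Grik1* and *Grik4* are described further, chosen after their values were seen. *Grm7* in OLs measured 187, 109, 302 and 178 CPM in the control libraries and 93.5, 102, 125 and 108 CPM in the libraries labelled cKO, so that the groups overlapped. Its log2 fold change was -0.88 ± 0.24 (adjusted p = 0.333), and -0.58 without control replicate 3, the highest library. In astrocytes *Grm7* measured 57.5, 48.3, 64.4 and 53.6 CPM against 24.95, 23.3, 39.1 and 38.9 CPM, without overlap (-0.83 ± 0.18, adjusted p = 0.432). *Grm7* had values of -0.35 ± 0.14 in OPCs and 0.30 ± 0.22 in neurons. Within the 7 OL subclusters its mean was lower in the libraries labelled cKO in each, by -0.18 to -0.97 on the log2 scale. Subcluster 2, where *Grm7* was highest in control libraries, held 1806 of 7988 control OLs and 1626 of 11242 OLs under the cKO label. Subcluster 0, where it was lowest, held 1571 and 2323. The part of these sizes in the OL differences of *Grm7* and *Grik1* was not tested. Within 10 astrocyte subclusters the differences of the means ran from -1.92 in subcluster 8, with 2 control libraries, to 0.07 in subcluster 7. Subcluster 4, where *Grm7* was highest, gave -0.44, and the part of the subclusters' unequal sizes in the astrocyte difference was not tested.

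*Grik1* in OLs had 595, 575, 484 and 504 CPM in the control libraries and 632, 746, 757 and 753 CPM in the libraries labelled cKO, without overlap (0.40 ± 0.10, adjusted p = 0.279). Within the 7 OL subclusters the mean of *Grik1* was higher under the cKO label in each, by 0.20 to 0.60 on the log2 scale. In OPCs, where the groups overlapped, its value was -0.21 ± 0.16, and in neurons -0.41 ± 0.35. In astrocytes it was 0.61 ± 0.26 (adjusted p = 0.632) and in fibroblasts 0.76 ± 0.27 (adjusted p = 0.995). By the measure against empty droplets, *Grik1* was counted in neither of these types. In control fibroblasts it measured 1.59 ± 1.88 CPM after ambient subtraction (SD, n = 4). *Grik1* lies 2.93 Mb from *Olig2* on chromosome 16, the gene whose regulatory sequence drives cre, and whether this distance bears on the difference was not tested. *Grik4* in OLs had 163, 125, 144 and 169 CPM against 103, 113, 111 and 112 CPM, also without overlap (-0.47 ± 0.11, adjusted p = 0.192). DESeq2 gave it an adjusted p of 0.0280 with -0.48, under the limit of 0.5 on the fold change. Receptor genes whose groups did not overlap in the lower direction numbered 2 of 22 with at least 80 UMIs in OLs (background 3.21% of genes), 3 of 23 in astrocytes (2.57%), 2 of 21 in OPCs (2.39%), 1 of 16 in fibroblasts (1.28%) and 1 of 28 in neurons (2.03%). In the higher direction there was *Grik1* in OLs (background 2.7%) and none in the other types (1.99%, 2.51%, 1.51% and 1.1% in the same order).

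In free RNA the means of *Grm7* and *Grik1* differed between the groups in the same direction as in OLs. In empty droplets *Grm7* had a mean of 34.3 CPM in control and 20.2 CPM in the libraries labelled cKO, a log2 difference of -0.76, and *Grik1* had 63.1 and 77.1 CPM, a difference of 0.29. Of the 29 receptor genes with at least 100 UMIs in empty droplets, 22 were lower and 7 higher in the libraries labelled cKO. No share over all genes was taken there, so this count does not set the receptor genes apart. Astrocyte *Grik1* lay below the empty droplets in both groups. With the estimated ambient share subtracted, fewer genes could be tested, and 10 of 15 had a negative value in OLs (median -0.12), 15 of 17 in astrocytes (-0.17) and 13 of 19 in OPCs (-0.13). None was called.

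Sums over the marker lists of other cells also differed. All 5 pituitary genes together measured 26.6, 96.1, 1038 and 37.4 CPM in OL sums of the control libraries and 1.86 to 16.8 CPM in the libraries labelled cKO, without overlap, and control replicate 3, which had the highest *Grm7* level in OLs, was highest. In astrocytes the same 5 genes measured 17.3, 139, 1400 and 30.6 CPM against 3.402 to 12.6 CPM. The 6 OPC markers summed to 292 to 387 CPM in control OLs and 273 to 287 CPM in the others. The 6 neuron markers, none of them at 0, summed to 12.9 to 32.3 CPM in control and 11.2 to 36.9 CPM in the others, and these ranges overlapped. The 4 erythroid (haemoglobin) markers had medians of 2262 CPM in control OLs and 716 CPM in the others, and of 2121 and 726 CPM in astrocytes, with overlap in both types. In OPCs the erythroid markers summed to 1404 to 2363 CPM in control and 491 to 1248 CPM in the others, and the pituitary genes to 32.2 to 957 and 0 to 4.69 CPM, both without overlap. The 5 retina markers summed to 3.902 to 7.27 CPM in control OLs and 7.70 to 13.7 CPM in the others, and to 75.3 to 141 and 160 to 181 CPM in OPCs, without overlap. In astrocytes the 6 markers of committed OPCs summed to 1173 to 1288 CPM in control and 951 to 1120 CPM in the others. In control OLs the markers of committed OPCs summed to 431 to 530 CPM, lower than in control astrocytes. The retina list was higher in OPCs than in OLs in both groups. Whether such sums stand for genes of the types themselves or for RNA of other cells was not tested. The part of these differences in the genotype values was not tested either. Of the 61 other genes of the pathway, 7 to 45 could be tested per type, and edgeR with its filter on low counts called none of those between genotypes. In OPCs *Adarb2* had an adjusted p of 0.0423 with a log2 fold change of -0.46 ± 0.11, under the limit of 0.5.

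**Figure D5:**
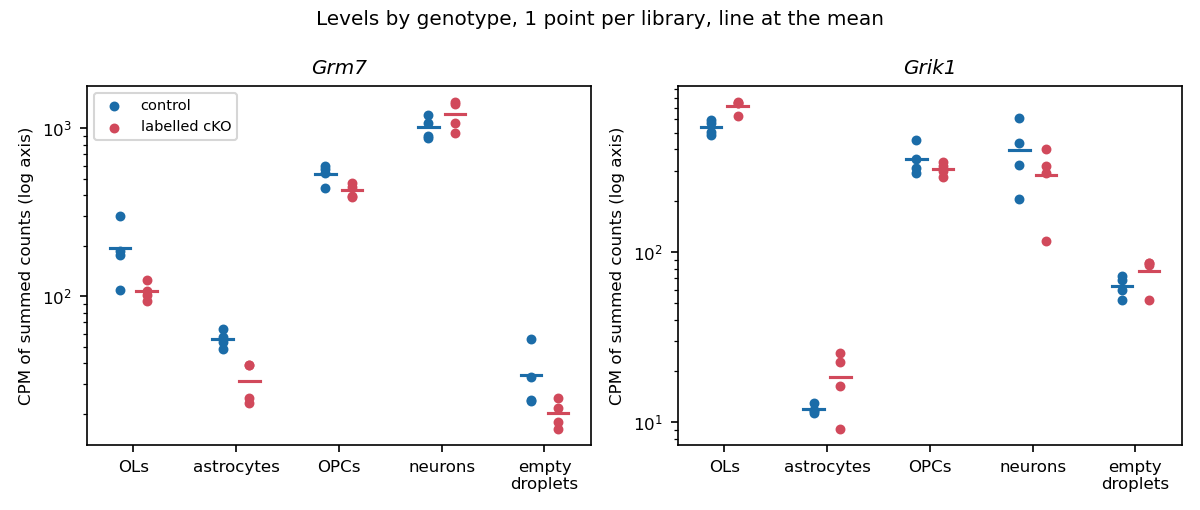
Levels of *Grm7* and *Grik1* by genotype in 4 cell types and in empty droplets (CPM of summed counts, log axis), 1 point per library with a line at the mean. *Grm7* is lower in the libraries labelled cKO in OLs, astrocytes, OPCs and empty droplets and not in neurons. *Grik1* is higher in those libraries in OLs, astrocytes and empty droplets. No difference was called by edgeR with its filter on low counts.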

How the data were processed

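The deposited values were counts of UMIs per gene and barcode, which the authors made with Cell Ranger 7.0.0 on GRCm39 and left unfiltered and without normalization. Removal of ambient RNA and of doublets, as described in the methods of the study, is not part of the deposited counts and was not repeated with the same tools. A library held 39628926 to 56541132 UMIs. The depth of each sum, the 4 libraries per group and, in committed OPCs and mural cells, the few nuclei limit the precision.

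Nuclei were called from the 8000 expected with a threshold at the 99th percentile divided by 10, and by a test against empty droplets for barcodes with at least 500 UMIs at an FDR of 0.01. Removed were nuclei with under 200 genes or over 5% mitochondrial counts, outliers by 5 median absolute deviations (3 for mitochondrial counts), and the highest doublet scores (0.8% per 1000 nuclei). Clustering (scanpy 1.11.5, leidenalg 0.10.2, Python 3.11.15) used 3000 variable genes without the receptor genes, the pathway genes, *Piezo1*, *Piezo2* and *Olig2*, 30 principal components, 15 neighbours weighted by shared neighbours, and the Leiden method at resolution 3, which gave 50 clusters. A cluster was named from at least 3 raised markers of a list. It stayed unnamed when markers of another list led its top 10 genes, when it mixed types at a high UMI count, or when it was shallow. Neurons were clustered again, and groups with at least 3 raised pituitary markers were removed. A group of 68 nuclei with *Pomc* as its leading gene had 1 raised pituitary marker and was kept. Subclusters of OLs and astrocytes used resolution 1.

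Sums over the nuclei of each type in a library entered a test from 10 nuclei and 1000 counts upwards. The test was the quasi-likelihood F test of edgeR 4.0.16 (TMM, filterByExpr) in R 4.3.3, two-sided, with standard errors derived from the F statistic. The genotype was the only term between genotypes, and the library was a block within libraries. DESeq2 1.42.0, RLE normalization, no filter on low counts, thinning to 1000 UMIs, subtraction of ambient RNA, assignment of nuclei by markers alone, the fit without the block and leaving out each library were alternatives. Repeating the comparisons in the libraries labelled cKO, and assignment by markers alone and ambient subtraction for committed OPCs, were added after seeing the data. The models were checked on simulated counts. Replicate numbers of the groups do not overlap, so genotypes were not paired.

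Values per library are printed for up to 4 genes per class with the highest glial, vascular or fibroblast mean, and values of at most 8 called genes and 6 pathway genes per comparison, by smallest adjusted p. The receptor genes and lists were chosen with earlier results of these data known. Of the 33696 genes, 98.5% matched the annotation by identifier.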

Additional observations from a re-analysis of the deposited data

Results flagged for a closer look

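Over 61 groups of 4 libraries of the receptor genes in 5 cell types, 3 had a library far from the others, where chance marks about 1 group in 20. *Grik1* in OLs of the libraries labelled cKO was 632 CPM in replicate 10 and 746 to 757 CPM in the other libraries. *Grik2* in astrocytes of the control libraries was 642 CPM in replicate 3 and 516 to 531 CPM in the others. *Grin3a* in neurons of the libraries labelled cKO was 109 CPM in replicate 13 and 88.4 to 88.9 CPM in the others.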

How the results depend on the processing

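The fold changes of the genes followed singly kept their sign under each alternative run for them, except that *Gabrg3* between committed OPCs and OPCs turned from -2.41 to 0.4843 with nuclei assigned by markers alone, while the share of receptor genes with a negative value between genotypes moved, to 71.4% to 85.7% in OLs and 9 to 17 of 27 genes in neurons with a library left out. Between genotypes, dropping the filter on low counts called 1 receptor gene in each of OLs (*Grm7*, adjusted p = 0.0281), astrocytes (*Grm7*, adjusted p = 0.0110), myeloid cells (*Grik2*) and endothelial cells (*Grm8*), and DESeq2 called 1 in astrocytes, where edgeR with the filter called 0. With any library left out, 0 to 0 receptor genes were called in each of the 7 types. Thinning to 1000 UMIs kept 17 of the 23 receptor genes called between OPCs and OLs and 15 of the 21 between astrocytes and OLs, and reduced the receptor genes called from 12 to 7 between committed OPCs and OPCs, from 14 to 9 (8 of them shared) between committed OPCs and OLs, and from 2 to 1 by OL score. Of the genes called, 18 of the 23, 15 of the 21, 7 of the 12, 11 of the 14 and both of the 2 could still be tested, and the cause of the other losses was not tested. Without the library as a block, 22, 19, 12 and 14 receptor genes stayed called between OPCs and OLs, astrocytes and OLs, committed OPCs and OPCs, and committed OPCs and OLs, and 1 of 2 by OL score, where *Grm7* had -1.1 ± 0.31 (adjusted p = 0.131). With each control library left out, 1 to 2 were called by OL score, 21 to 24 between OPCs and OLs and 18 to 23 between astrocytes and OLs. The counts of all genes called between genotypes were 12 in OLs with edgeR, 51 with DESeq2 and 42 without the filter. In astrocytes they were 0, 9 and 29. Dropping the filter raised them from 0 to 22 in myeloid cells and from 0 to 12 in endothelial cells. The highest non-neuronal type was the same for 26 of 27 genes after subtraction of ambient RNA, for 27 with markers alone and for 24 with any library left out. With markers alone, 9 of the 12 receptor genes called between committed OPCs and OPCs and 11 of the 14 between committed OPCs and OLs were called, and with ambient RNA subtracted 10 and 14 were. These 2 alternatives were added for committed OPCs after seeing the data and were not run for the OL score. For no alternative was the share of all genes kept computed, so the counts kept do not set the receptor genes apart. The depth of T cells, mural cells and committed OPCs limits what could be seen in them.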

Other observations

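The comparisons within libraries were also made in the 4 libraries labelled cKO, a choice made after seeing the data. All 23 receptor genes called between OPCs and OLs in the control libraries were called in the same direction there, as were 19 of the 21 called between astrocytes and OLs, where *Gabra2* and *Grm5* were not. Called only there were *Grin2b* and *Grin2d*, higher in OPCs, and *Gabbr2* and *Gabrg1*, higher in astrocytes. The share of all genes kept was not computed, so these counts do not set the receptor genes apart. By OL score, *Grm7* had -1.34 ± 0.08 (adjusted p = 1.10e-20) and *Grm3* -0.49 ± 0.03 (adjusted p = 1.08e-18), the latter just under the limit on the fold change. *Gria2*, which stayed below the empty droplets in OLs, was called lower in the upper group of these libraries (-0.98 ± 0.28, adjusted p = 0.0134).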
